A study of Mus musculus with 16 samples.

Results

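Receptors for serotonin, dopamine, acetylcholine, noradrenaline, adrenaline and histamine were examined in mouse hippocampus, in mice with a reduced dose of the CREB-binding protein CBP and in their wild-type littermates, each kept in standard cages or in an enriched environment. The members are the genes whose array probe set carries a single symbol of the serotonin (Htr), dopamine (Drd), muscarinic (Chrm), nicotinic (Chrna and Chrnb), adrenergic (Adra and Adrb) or histamine (Hrh) receptor families. The rule found 43 genes of the 19935 genes measured by a single-symbol probe set, and each was represented by 1 probe set of the 21780. They comprised 14 serotonin, 5 dopamine, 5 muscarinic, 13 nicotinic, 2 adrenergic and 4 histamine receptor genes. The adrenergic members were Adra1b and Adra2c, and the other adrenergic receptors were not analysed here.

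There were 4 groups, namely cbp+/- mice after 2 weeks of enrichment (3 arrays), cbp+/- mice in standard cages (5 arrays), wild-type mice after the same enrichment (3 arrays) and wild-type mice in standard cages (5 arrays). All mice were 3-month-old females, and their mixed strain was the F2 of C57BL/6J and DBA. The cbp+/- mice are heterozygous for a deficiency of CBP (gene Crebbp), and the labels name no restriction of it to a tissue or cell type. The enriched mice lived in large boxes, with more animals than a standard cage holds, and had running wheels, tubing and toys, so running, company and new objects came together. The title of the series asks whether CBP is needed for the effects of enrichment on neurogenesis and cognition. Each array held a pool of hippocampal RNA from 4 mice, which the labels describe as independent biological replicates. Signals are given below as log2 of the deposited intensity, and a difference of log2 signals is a change on that scale, given with its standard error (SE) from limma.

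Acetylcholine reaches the hippocampus mainly from the medial septum and diagonal band, serotonin from the raphe nuclei, noradrenaline from the locus coeruleus, dopamine from the midbrain and locus coeruleus, and histamine from the tuberomammillary nucleus. Most of their receptors are G-protein-coupled: receptors coupled to Gs raise cyclic AMP, those coupled to Gi lower it, and those coupled to Gq act through phospholipase C and calcium. The nicotinic receptors and the serotonin 5-HT3 receptors are instead ion channels assembled from homologous subunits. Cyclic AMP and calcium both lead to phosphorylation of CREB, the factor to which CBP binds.

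Since CBP is recruited by CREB, the promoter windows of the members were searched for the cyclic AMP response element, TGACGTCA, and for its core, TGACG, on both strands (TGACG reads as CGTCA on the other strand). The full element contains the core. RefSeq windows of 250 bases before to 50 after an annotated start (GRCm38.p6) were at hand for 35 of the 43 members, in 44 windows. No member window held the full element, which 1.79% of all 32851 windows hold. The core was found in 4 of the 44 windows (9.09%, against 20.8% of all windows), in Chrna5, Chrnb1, Chrnb2 and Htr7. The median GC content of the member windows was 58.5%, against 52.7% over all windows. A match in these letters is only a description of the window, and no binding was measured. The windows of 4 members to which the results below return are shown, 5′ to 3′ on the strand of the gene, with the core in capitals. Chrnb2 and Chrnb1 hold a core, 148 and 6 bases before the start, and Htr2b and Drd2 hold none. They were chosen as a bright and a dim nicotinic subunit with a core, and as the members with a window that had the smallest p for enrichment in wild-type mice and for genotype in standard cages.
Chrnb2 (chr3:89764583-89764882, - strand): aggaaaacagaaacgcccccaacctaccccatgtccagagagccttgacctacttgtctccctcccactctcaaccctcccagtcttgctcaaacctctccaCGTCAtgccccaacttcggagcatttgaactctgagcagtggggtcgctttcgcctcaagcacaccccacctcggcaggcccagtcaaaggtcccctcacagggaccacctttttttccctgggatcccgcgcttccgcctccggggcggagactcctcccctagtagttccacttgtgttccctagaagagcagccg
Chrnb1 (chr11:69795888-69796187, - strand): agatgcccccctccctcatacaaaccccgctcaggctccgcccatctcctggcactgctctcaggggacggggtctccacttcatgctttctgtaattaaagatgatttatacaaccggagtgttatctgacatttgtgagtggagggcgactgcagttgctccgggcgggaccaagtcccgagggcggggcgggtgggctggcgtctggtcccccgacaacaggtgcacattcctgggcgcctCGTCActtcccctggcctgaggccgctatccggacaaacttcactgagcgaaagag
Htr2b (chr1:86111931-86112230, - strand): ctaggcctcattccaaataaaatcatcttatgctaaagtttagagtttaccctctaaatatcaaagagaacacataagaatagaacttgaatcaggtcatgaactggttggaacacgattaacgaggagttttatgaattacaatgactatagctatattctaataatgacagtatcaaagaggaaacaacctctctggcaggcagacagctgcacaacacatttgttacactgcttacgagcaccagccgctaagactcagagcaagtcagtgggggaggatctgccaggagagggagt
Drd2 (chr9:49340153-49340452, + strand): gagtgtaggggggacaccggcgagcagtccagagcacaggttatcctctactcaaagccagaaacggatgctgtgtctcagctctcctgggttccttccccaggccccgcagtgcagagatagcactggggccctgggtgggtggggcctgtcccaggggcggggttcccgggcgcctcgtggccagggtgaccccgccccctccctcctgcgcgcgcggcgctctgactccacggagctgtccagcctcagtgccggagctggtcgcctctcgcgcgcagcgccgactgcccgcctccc

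The level of a probe set was set beside that of 1035 olfactory receptor probe sets, genes scarcely used in hippocampus, whose 95th percentile lay at a log2 signal of 5.64. By mean signal over the 16 arrays 30 members lay above this value and 13 below it. All 5 muscarinic genes lay above, as did 11 of 14 serotonin, 4 of 5 dopamine, both adrenergic and 3 of 4 histamine receptor genes, but only 5 of 13 nicotinic genes (Chrna4, Chrna5, Chrna7, Chrnb2 and Chrnb4). Those below were Htr1d, Htr2b, Htr3b, Drd3, Chrna1, Chrna2, Chrna3, Chrna6, Chrna9, Chrna10, Chrnb1, Chrnb3 and Hrh4. Several of these belong to muscle, cochlea, habenula or midbrain neurons in the mouse. The signal of these 13 cannot be told apart from that of genes scarcely used in the tissue.

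The arrays differed in ways that cut across the 4 groups. Clustering of all signals put standard-cage and enriched arrays 1 and 2 of both genotypes in a set of their own, standard-cage arrays 5 with enriched arrays 3 in another, and standard-cage arrays 3 and 4 in a set each. The interquartile range of log2 signals was 2.37 to 2.53 on enriched and 2.47 to 2.65 on standard-cage cbp+/- arrays, and 2.22 to 2.37 on enriched and 2.49 to 2.58 on standard-cage wild-type arrays. All 13 markers of hippocampal principal neurons lay above the olfactory 95th percentile, and so did 3 of 7 markers of raphe, locus coeruleus and midbrain neurons (Slc6a2, Slc6a3 and Th), while Dbh, Phox2a, Slc6a4 and Tph2 lay below it. The summed signal of these 7 was 325 to 379 on enriched and 323 to 346 on standard-cage cbp+/- arrays, and 353 to 405 on enriched and 321 to 361 on standard-cage wild-type arrays. Summed signal of 10 choroid plexus markers was 7808 on standard-cage cbp+/- array 3, and 612 to 2474 on the other 15 arrays. Crebbp itself had a log2 signal of 9.35 to 9.88 on standard-cage cbp+/- arrays and 9.21 to 9.64 on standard-cage wild-type arrays (change 0.14 ± 0.099 SE, limma adjusted p = 1.00), a value above 0. On enriched arrays it was 9.37, 9.33 and 9.37 in cbp+/- mice, against 9.25, 9.18 and 9.35 in wild-type mice. The cbp+/- array was the higher in all 8 same-numbered pairs, though the labels state no pairing. Averaged over housings the difference of Crebbp was 0.12 ± 0.081 (SE). The sources used here do not say which part of the gene the allele lacks, so this probe set is no check of the genotype labels, which were taken as given.

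No receptor gene passed a Benjamini-Hochberg adjusted p of 0.05 over the 21780 probe sets in any of the 7 comparisons (limma), and neither did any other probe set, a share of 0% in each. In whole hippocampus, fewer cells that carry a receptor and less RNA per cell cannot be told apart. At an unadjusted p under 0.05, enrichment gave 0 of 43 receptor genes in cbp+/- mice (2.82% of all probe sets, 1.54% higher and 1.29% lower). In wild-type mice it gave 8 of 43, all higher with enrichment (17.8% of all, 14.1% higher and 3.72% lower). Genotype gave 1 gene in standard cages, Drd2, lower in cbp+/- mice (0.987% of all, 0.5% higher and 0.487% lower). Under enrichment it gave 3, all lower in cbp+/- mice (5.23% of all, 1.16% higher and 4.07% lower). The interaction gave 0 (2.66% of all, 0.372% higher and 2.29% lower). Averaged over genotypes, enrichment gave 12 receptor genes, 11 higher and Chrna7 lower (19.1% of all, 13.4% higher and 5.73% lower). Averaged over housings, genotype gave 3, all lower in cbp+/- mice (3.91% of all, 1.41% higher and 2.5% lower). The 8 genes in wild-type mice are thus a share near that of all probe sets. These counts moved with single arrays. Without enriched cbp+/- array 3 the cbp+/- count for enrichment was 6, without enriched wild-type array 3 the wild-type count was 13, and without enriched cbp+/- array 2 the genotype count was 8 under enrichment and 11 over both housings.

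**Figure D1:**
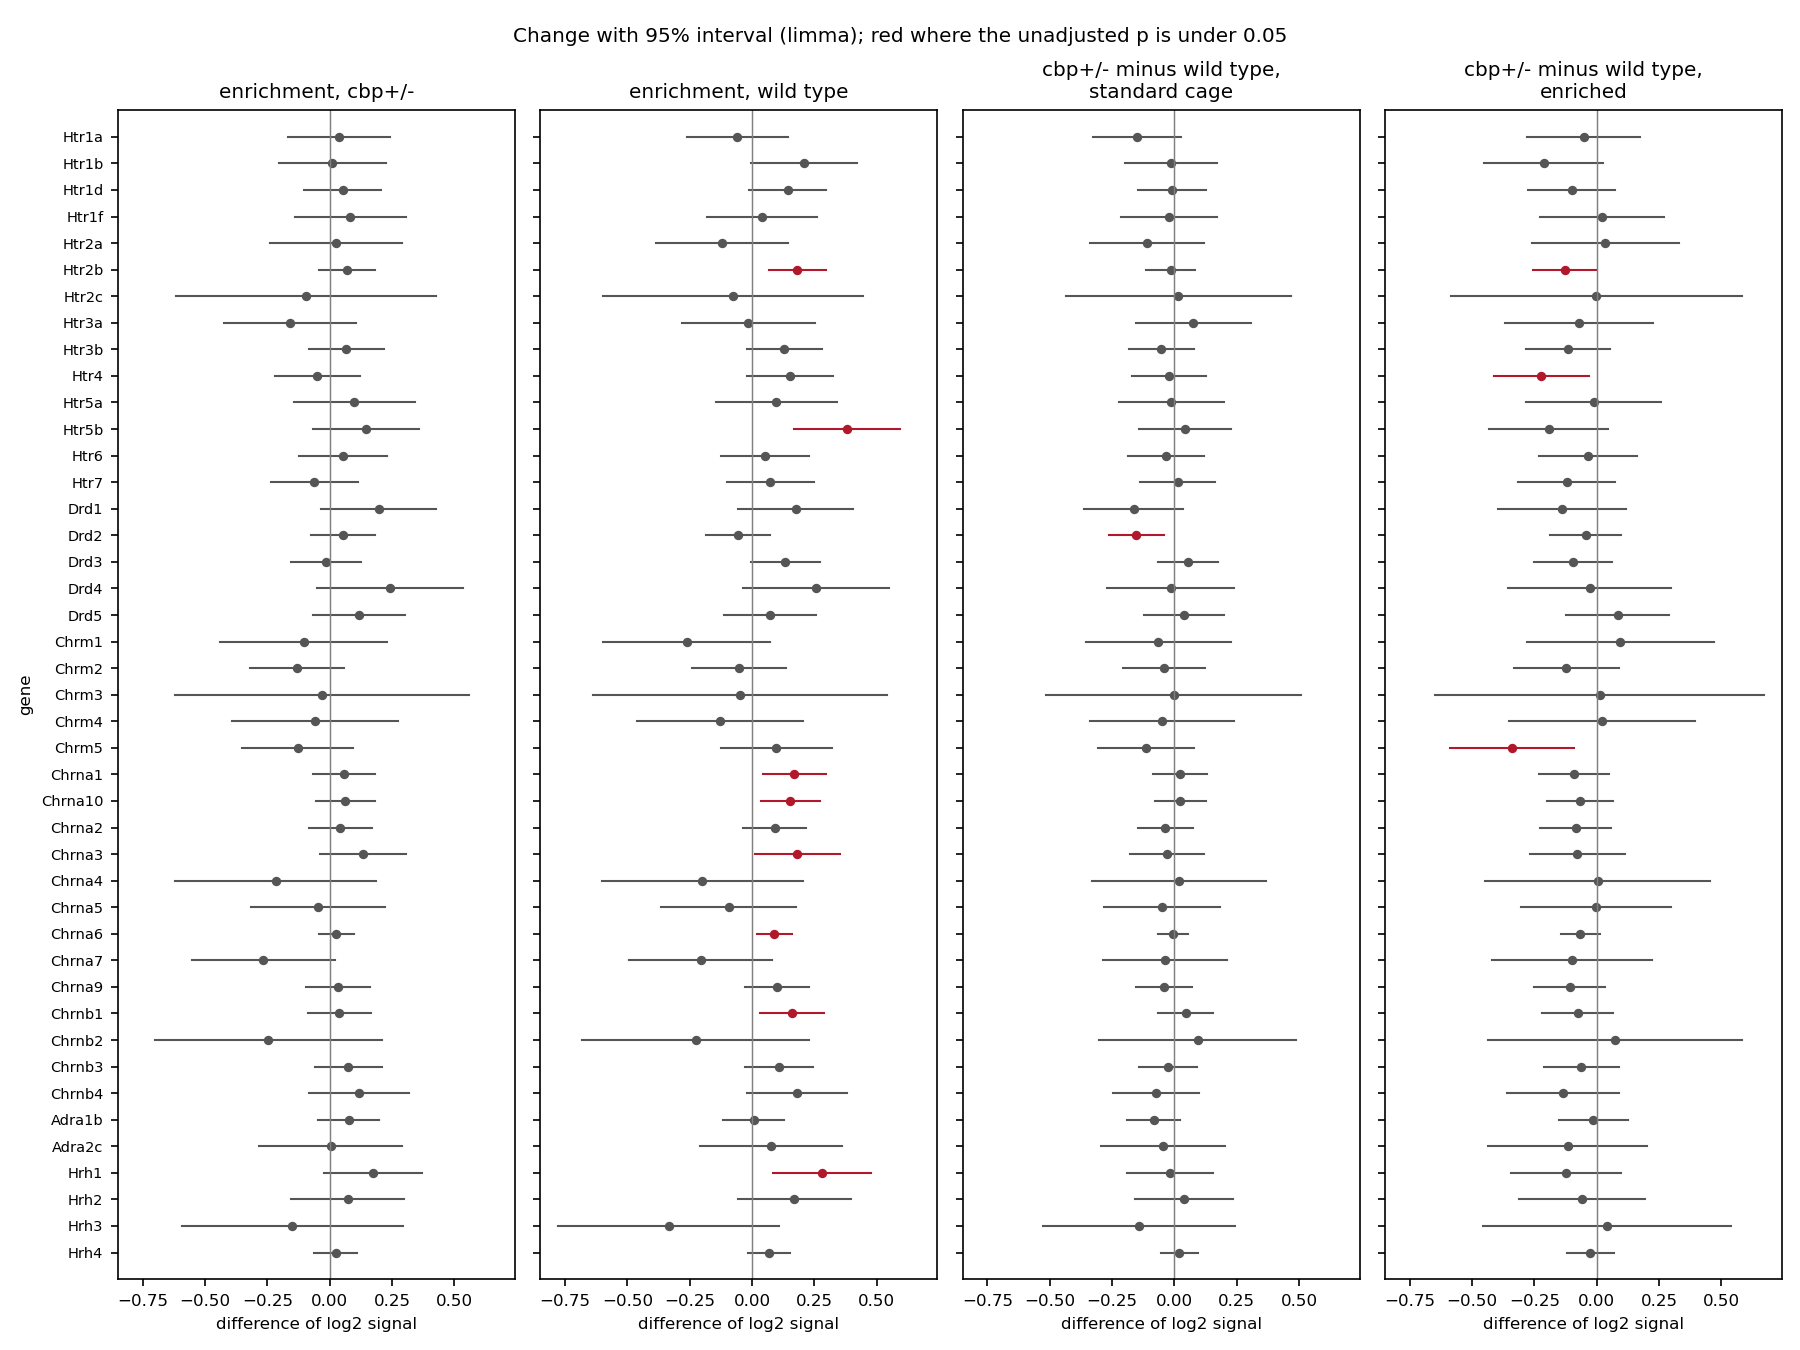
Differences of log2 signal with 95% limma intervals for the 43 receptor genes, for enriched minus standard-cage cbp+/- arrays, enriched minus standard-cage wild-type arrays, and cbp+/- minus wild-type arrays in either housing. Red marks an unadjusted p under 0.05, which 0, 8, 1 and 3 genes had, and no gene passed the adjusted threshold.

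By direction alone, 28 of 43 receptor genes were higher and 15 lower with enrichment in cbp+/- mice, with a median change of 0.037 (55% of all probe sets higher, median 0.0096). In wild-type mice 29 were higher and 14 lower, with a median of 0.088 (58.4% of all higher, median 0.029). Averaged over genotypes 28 were higher and 15 lower (58.9% of all higher). The cbp+/- split rested on single arrays: it was 22 higher and 21 lower without enriched array 2 (median 0.0012), 24 and 19 without standard-cage array 5 (median 0.019), and 33 and 10 without enriched array 3 (median 0.076). The wild-type median was 0.048 without enriched array 1, with 28 higher and 15 lower. The direction differed with brightness. Of the 22 members below the median probe set (log2 signal 6.59), 20 were higher with enrichment in wild-type mice, as were 84.4% of all probe sets below it, and their median change was 0.104 (0.081 for all below). Of the 21 members above it, 9 were higher, with a median of -0.047 (32.3% of all above it were higher, median -0.068). In cbp+/- mice 18 of 22 dimmer and 10 of 21 brighter members were higher, with medians of 0.053 and -0.032 (0.026 and -0.026 over all probe sets). Once all arrays were quantile normalized, the median change of the members was 0.018 in cbp+/- mice and 0.025 in wild-type mice, with 25 and 27 of 43 higher. Then 5 members had an unadjusted p under 0.05 in wild-type mice (9.13% of all probe sets), namely Htr5b, Htr4, Hrh1 and Htr1b, higher with enrichment, and Drd2, lower by this measure at -0.17.

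**Figure D2:**
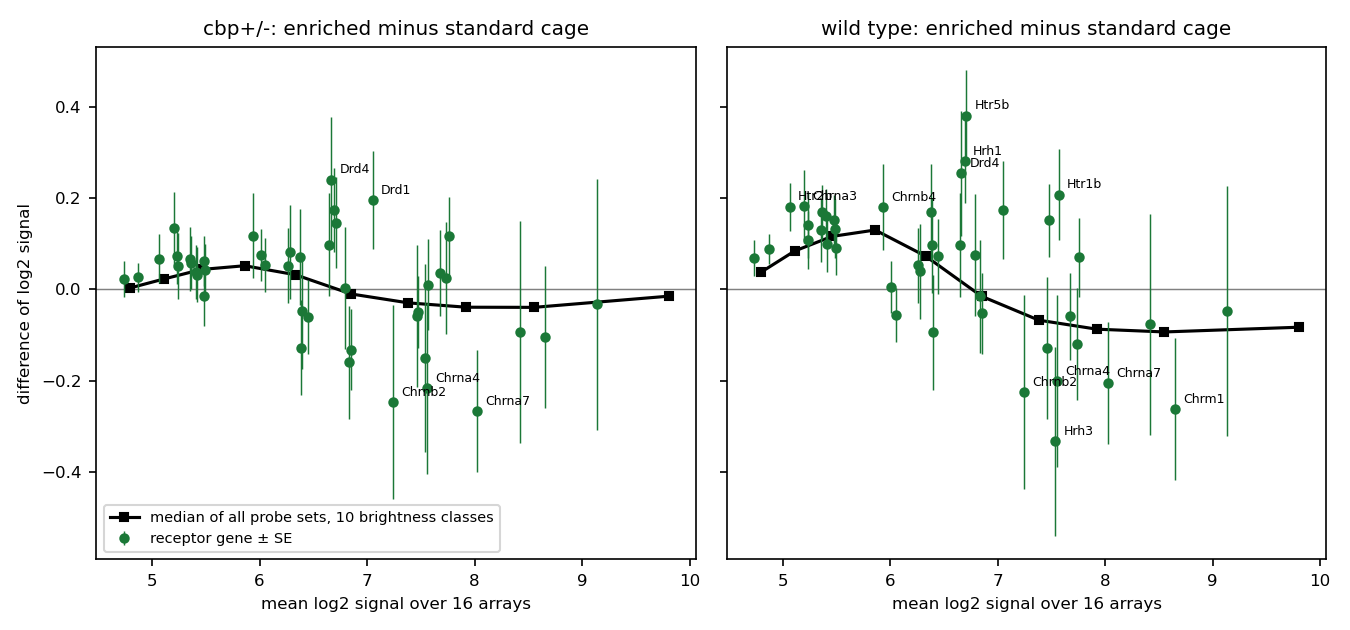
Difference of log2 signal, enriched minus standard cage, against mean log2 signal over the 16 arrays, for cbp+/- arrays (left) and wild-type arrays (right). Green points with SE bars are the 43 receptor genes and black squares are medians of all probe sets in 10 classes of brightness; in wild-type mice the class medians lie between 0.037 and 0.130 in the 5 dimmest classes and between -0.015 and -0.093 in the 5 brightest.

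Among the serotonin receptors, Htr5b had the smallest p with enrichment in wild-type mice. Htr5b encodes 5-HT5B, a rodent receptor of the habenula and hippocampal CA1, whose human counterpart does not code for a functional protein. Its log2 signal was 7.04, 7.0001 and 6.88 on enriched wild-type arrays, against 6.53, 6.87, 6.65, 6.52 and 6.38 on standard-cage wild-type arrays. The groups did not overlap, although enriched array 3 exceeded standard-cage array 2 by little. The change was 0.38 ± 0.099 (SE), or 1.30-fold, with an unadjusted limma p of 0.00175 and an adjusted p of 0.123. In cbp+/- mice Htr5b had 6.80, 6.92 and 6.62 on enriched arrays, against 6.73, 6.63, 6.75, 6.52 and 6.53 on standard-cage arrays, and these groups overlapped (change 0.15 ± 0.099, adjusted p = 0.999). The difference between the genotypes in this change was -0.24 ± 0.14 with an adjusted p of 1.00. Within the sets of similar arrays, Htr5b was higher with enrichment in wild-type mice both in replicates 1 and 2 (by 0.32) and between enriched array 3 and standard-cage array 5 (by 0.50). Quantile normalization left the wild-type change at 0.39.

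Every enriched wild-type array lay above every standard-cage wild-type array for 6 of the 43 members (9.16% of all probe sets), namely Htr5b, Htr2b, Htr1d, Htr4, Chrna10 and Chrna6, and below it for none (2% of all). Htr2b, the Gq-coupled 5-HT2B receptor, had a log2 signal of 5.20, 5.285 and 5.14 on enriched wild-type arrays, against 5.02, 5.04, 5.08, 4.95 and 5.04 on standard-cage ones (change 0.18 ± 0.053, adjusted p = 0.141). In cbp+/- mice it had 5.04, 5.17 and 5.02 on enriched arrays and 5.06, 5.11, 4.95, 4.98 and 4.96 on standard-cage arrays. All these values lie below the olfactory 95th percentile, and quantile normalization brought the wild-type change of Htr2b to 0.10 with an unadjusted p of 0.0654. Htr2b was also among the 3 members with the smallest p between genotypes under enrichment (-0.13 ± 0.059, adjusted p = 0.924), where 2 of 3 cbp+/- arrays lay below all wild-type arrays.

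Htr4, the Gs-coupled 5-HT4 receptor, was lower on average in enriched cbp+/- mice than in enriched wild-type mice. Its log2 signal was 7.40, 7.51 and 7.29 on enriched cbp+/- arrays, against 7.60, 7.68 and 7.58 on enriched wild-type arrays, with no overlap (change -0.22 ± 0.089, adjusted p = 0.924). In standard cages it was 7.42, 7.36, 7.73, 7.41 and 7.33 on cbp+/- arrays, against 7.50, 7.49, 7.52, 7.45 and 7.37 on wild-type arrays. There 4 of 5 cbp+/- arrays lay below the same-numbered wild-type array, and array 3 lay above it. Htr4 had the smallest p of the members for the difference between genotypes in the response to enrichment (-0.20 ± 0.11, adjusted p = 1.00), and that difference was -0.13 without standard-cage cbp+/- array 3. Every enriched cbp+/- array lay below every enriched wild-type array in 4 members (Htr4, Htr1b, Chrm5 and Chrna6), against 6.85% of all probe sets, and above it in none (3.53%). In standard cages no member was free of overlap in either direction (0.174% of all probe sets wholly above and 0.0872% wholly below).

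Htr1a encodes the Gi-coupled 5-HT1A receptor of pyramidal and granule neurons. In standard cages its log2 signal was 7.72, 7.57, 7.72, 7.62 and 7.41 on cbp+/- arrays, against 7.97, 7.85, 7.58, 7.80 and 7.58 on wild-type arrays. The cbp+/- array was lower in 4 of 5 same-numbered pairs, and the change was -0.15 ± 0.082 (adjusted p = 1.00). Under enrichment Htr1a averaged 7.64 ± 0.070 in cbp+/- mice and 7.70 ± 0.11 in wild-type mice (SD, n = 3 each).

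Htr2c, the Gq-coupled 5-HT2C receptor, is also abundant in choroid plexus. Its log2 signal was 8.41, 8.45 and 8.24 on enriched cbp+/- arrays, against 8.47, 8.41, 9.21, 8.04 and 8.17 on standard-cage cbp+/- arrays. In wild-type mice it was 8.54, 8.54 and 8.02 with enrichment, against 8.61, 8.72, 8.79, 8.12 and 7.99 in standard cages. Its highest value fell on the array with the high choroid plexus sum, where Ttr, the transthyretin gene of that tissue, had a log2 signal of 12.69, against 7.14 to 10.90 on the others. On wild-type standard-cage array 3, where Htr2c was second highest, Ttr was 7.75. The change of Htr2c with enrichment in cbp+/- mice was -0.094 ± 0.24 (SE), and it was 0.093 without that array. The part of the choroid plexus signal in Htr2c was not tested. Htr3a, the obligatory subunit of the 5-HT3 channel and in hippocampus a marker of interneurons, averaged 6.74 ± 0.12 with enrichment and 6.90 ± 0.17 in standard cages in cbp+/- mice, and 6.81 ± 0.056 with enrichment and 6.83 ± 0.24 in standard cages in wild-type mice (SD, n = 3 and 5). The remaining serotonin receptor genes, Htr1b, Htr1d, Htr1f, Htr2a, Htr3b, Htr5a, Htr6 and Htr7, differed by 0.21 or less in size in each of the 4 group comparisons.

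**Figure D3:**
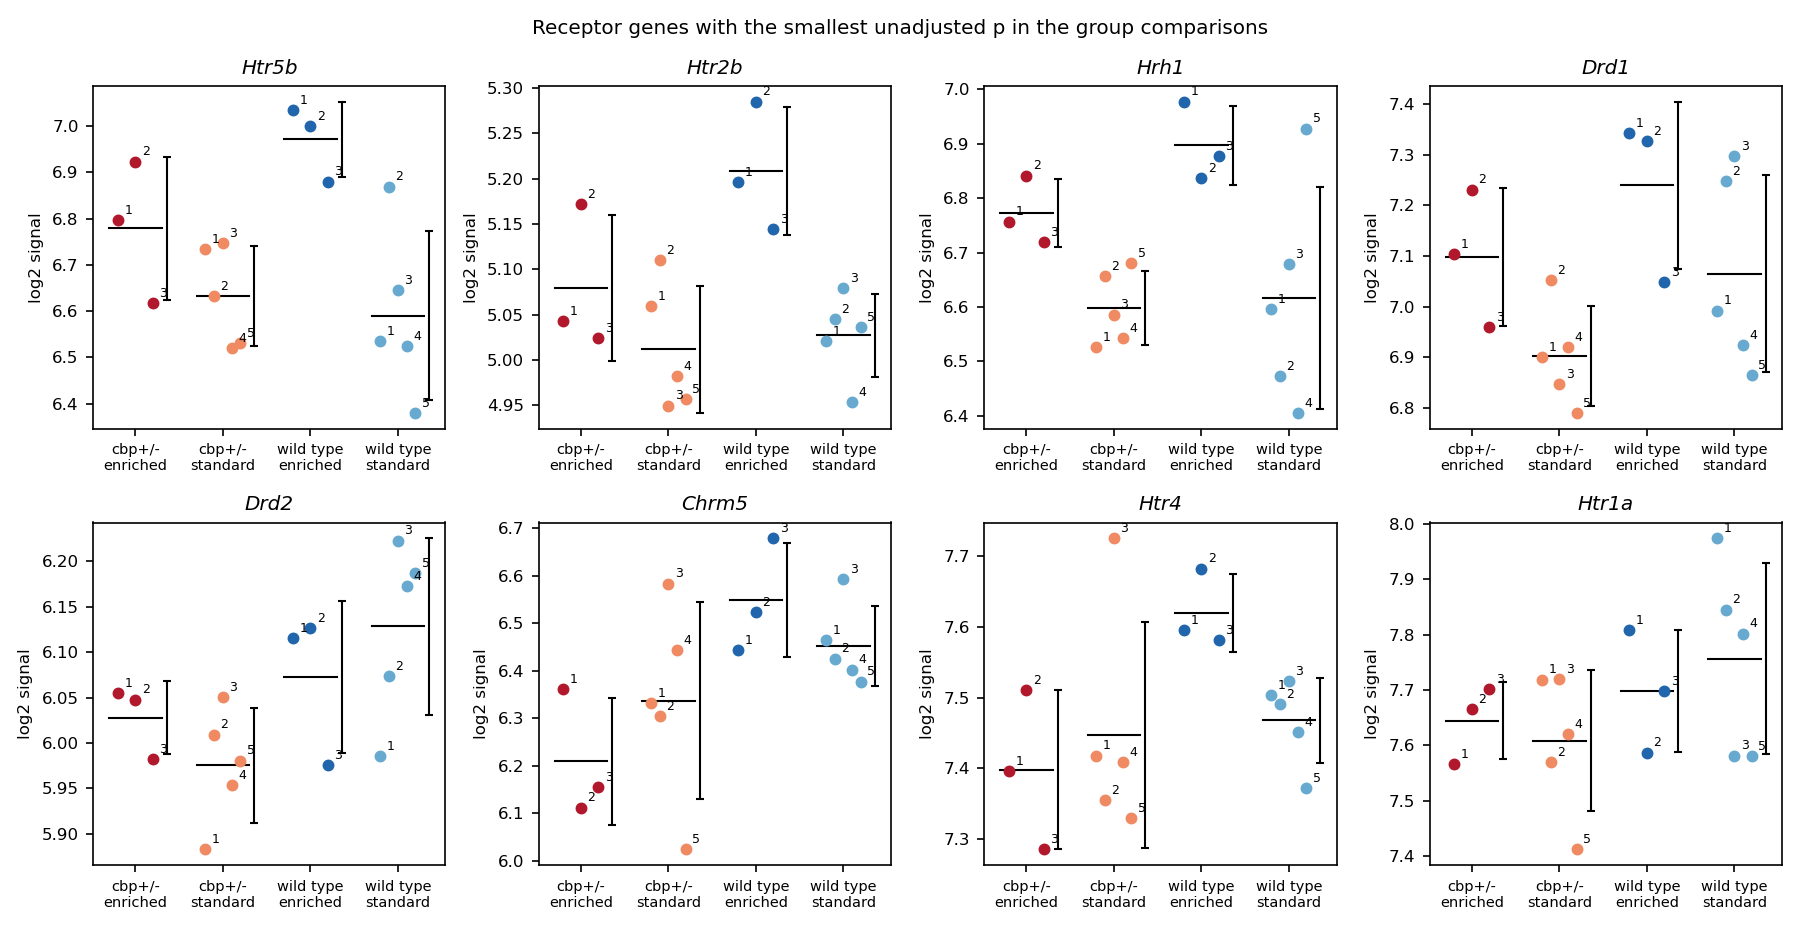
Log2 signal of 8 receptor genes on each array, with the replicate number beside each point, group means (lines) and SD bars, n = 3 enriched and 5 standard-cage arrays of each genotype. The enriched wild-type arrays lie above all standard-cage wild-type arrays for Htr5b, Htr2b and Htr4, and the enriched cbp+/- arrays lie below all enriched wild-type arrays for Chrm5 and Htr4; no difference shown passed the adjusted threshold.

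Among the dopamine receptors, Drd1 and Drd2 were lower on average in cbp+/- mice. Averaged over housings so were Drd3 and Drd4, but not Drd5, and 35 of the 43 members in all were lower. Drd2 encodes the Gi-coupled D2 receptor and had the smallest p of the members between genotypes in standard cages. On the log2 scale its signal was 5.88, 6.01, 6.05, 5.95 and 5.98 on cbp+/- arrays, against 5.99, 6.07, 6.22, 6.17 and 6.19 on wild-type arrays. The groups overlapped, but in all 5 same-numbered pairs the cbp+/- array was lower. The labels state no pairing, and the share of all probe sets lower in every such pair was not counted. The change was -0.15 ± 0.051 (SE), or 0.899-fold, with an unadjusted limma p of 0.00983 and an adjusted p of 1.00. With same-numbered arrays as a block the adjusted p was 0.776. Under enrichment Drd2 averaged 6.03 ± 0.040 in cbp+/- mice and 6.07 ± 0.084 in wild-type mice (SD, n = 3 each; change -0.045).

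Drd1, the Gs-coupled D1 receptor, had a log2 signal of 6.90, 7.05, 6.85, 6.92 and 6.79 on standard-cage cbp+/- arrays, against 6.99, 7.25, 7.30, 6.92 and 6.86 on standard-cage wild-type arrays (change -0.16 ± 0.093, adjusted p = 1.00). Under enrichment it was 7.10, 7.23 and 6.96 on cbp+/- arrays, against 7.34, 7.33 and 7.05 on wild-type arrays. The cbp+/- array was thus the lower of the pair in all 8 same-numbered pairs, by little in standard-cage pair 4. Such a count was not made over all probe sets. Enriched pairs 1 and 2 are matched by number alone, as their deviations from group means correlated at only 0.26 and 0.31. Averaged over housings the genotype difference of Drd1 was -0.15 ± 0.076 (adjusted p = 0.999), and -0.20 to -0.12 when each array in turn was left out. With enrichment Drd1 was 0.20 ± 0.11 higher in cbp+/- mice and 0.17 ± 0.11 higher in wild-type mice, and neither passed the threshold. Striatal tissue is rich in both receptors. Summed signal of 7 striatal markers was 1002 to 1113 on enriched and 965 to 1160 on standard-cage cbp+/- arrays, and 1080 to 1172 on enriched and 1037 to 1138 on standard-cage wild-type arrays, and all 7 lay above the olfactory 95th percentile. The sum was lower in the cbp+/- array in 7 of the 8 same-numbered pairs, standard-cage pair 3 being the exception. Gene by gene the 7 markers were mixed. In standard cages 4 were higher and 3 lower in cbp+/- mice, under enrichment 2 and 5, and averaged over housings 3 and 4. The summed signal of 5 markers of deep and layer 4 cortex was lower in the cbp+/- array in all 8 pairs. The part of either tissue in the genotype difference of Drd1 was not tested.

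Drd5, the other Gs-coupled dopamine receptor and the one best known from hippocampal pyramidal neurons, was 7.89, 7.85 and 7.85 on enriched cbp+/- arrays, against 7.79, 7.85, 7.74, 7.71 and 7.63 on standard-cage ones. In wild-type mice it was 7.66, 7.72 and 7.95 with enrichment, against 7.87, 7.89, 7.58, 7.59 and 7.60 in standard cages. Enriched wild-type arrays 1 and 2 lay below standard-cage arrays 1 and 2, and enriched array 3 lay above all standard-cage arrays. The difference with enrichment was 0.24 ± 0.14 for Drd4, a Gi-coupled receptor, in cbp+/- mice and 0.25 ± 0.14 in wild-type mice. Drd3, below the olfactory 95th percentile, was among the 3 members with the smallest p for the interaction (-0.15 ± 0.092, adjusted p = 1.00). Its signal was 5.49, 5.50 and 5.43 on enriched and 5.47, 5.52, 5.44, 5.47 and 5.54 on standard-cage cbp+/- arrays. In wild-type mice Drd3 was 5.73, 5.49 and 5.49 with enrichment, against 5.41, 5.32, 5.50, 5.58 and 5.37 in standard cages. Without enriched wild-type array 1, its highest value, the interaction was -0.068.

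Chrm3, the Gq-coupled M3 receptor, had a log2 signal of 9.33, 9.36 and 8.67 on enriched and 9.49, 9.36, 8.99, 9.15 and 8.77 on standard-cage cbp+/- arrays. In wild-type mice Chrm3 was 9.50, 9.42 and 8.40 with enrichment, against 9.51, 9.43, 9.11, 9.20 and 8.52 in standard cages. Enriched array 3 and standard-cage array 5 were thus the lowest in both genotypes, and arrays 1 and 2 the highest, whatever the housing. Differences between the 4 array sets held 93.7% of the variance of Chrm3 and differences between the 4 groups 0.31%. The sets were made by clustering these arrays, so part of such a share is built in; over all probe sets the median was 38.9% between sets and 20.1% between groups, and over the 43 members 32.8% and 30.1%. Among the 21 members above the median probe set it was 69.4% between sets and 19.6% between groups. The same enriched arrays 3 and standard-cage arrays 5 had the lowest summed signal of 7 astrocyte markers, 3195 to 3405, against 3743 to 4505 on the other 12, and the part of this in Chrm3 was not tested.

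Chrm1, the Gq-coupled M1 receptor that is the main muscarinic receptor of hippocampal pyramidal neurons, averaged 8.59 ± 0.092 with enrichment and 8.69 ± 0.23 in standard cages in cbp+/- mice, and 8.49 ± 0.0615 with enrichment and 8.75 ± 0.31 in standard cages in wild-type mice (SD, n = 3 and 5). Standard-cage arrays 3 were the highest in both genotypes, at 9.03 in cbp+/- and 9.23 in wild-type mice, and without both the changes with enrichment were -0.020 and -0.14 in place of -0.10 and -0.26. All 5 muscarinic genes were lower on average with enrichment in cbp+/- mice, by 0.032 to 0.132, and 4 of 5 in wild-type mice, where Chrm5 was higher, none past the threshold. Of all probe sets above the median, where 4 of the 5 lie, 41.9% were higher in cbp+/- mice and 32.3% in wild-type mice. The cbp+/- direction rested on single arrays, since without enriched array 3 the changes were 0.19 for Chrm3 and 0.057 for Chrm4. Chrm3 was also above 0 in cbp+/- mice without standard-cage array 1 or 2, and Chrm4 without standard-cage array 3.

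Chrm5, the M5 receptor best known from midbrain dopamine neurons, had the smallest p of the members between genotypes under enrichment. The log2 signal was 6.36, 6.11 and 6.15 on enriched cbp+/- arrays, against 6.44, 6.52 and 6.68 on enriched wild-type arrays, with no overlap. The change was -0.34 ± 0.12 (SE), or 0.790-fold, with an unadjusted limma p of 0.0108 and an adjusted p of 0.924, or 0.305 with same-numbered arrays as a block. In standard cages Chrm5 was 6.33, 6.30, 6.58, 6.44 and 6.02 on cbp+/- arrays, against 6.47, 6.43, 6.59, 6.40 and 6.38 on wild-type arrays, and 4 of 5 pairs were lower in cbp+/-. Over both housings, 7 of 8 pairs were lower in cbp+/- mice and the difference was -0.23 ± 0.073 (adjusted p = 0.999, or 0.245 with the block). The pairs follow the replicate numbers only, and their agreement was not counted over all probe sets.

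Among the nicotinic subunits, Chrna4 and Chrnb2 form the main heteromeric brain receptor and were highest on the same arrays. Chrnb2 had a log2 signal of 7.15, 7.15 and 7.09 on enriched and 7.16, 7.05, 8.07, 7.38 and 7.24 on standard-cage cbp+/- arrays. In wild-type mice Chrnb2 was 7.22, 7.05 and 6.91 with enrichment, against 7.09, 6.996, 7.87, 7.27 and 7.20 in standard cages. Array 3 of the standard cage stood above every other array in both genotypes. Chrnb2 is one of the 4 genes whose window above holds a core. The changes with enrichment were -0.25 ± 0.21 in cbp+/- and -0.23 ± 0.21 in wild-type mice, and -0.073 and -0.078 without both standard-cage arrays 3. Chrna4 averaged 7.43 ± 0.074 with enrichment and 7.64 ± 0.38 in standard cages in cbp+/- mice, and 7.42 ± 0.099 with enrichment and 7.62 ± 0.28 in standard cages in wild-type mice (SD, n = 3 and 5), with 8.32 and 8.03 on standard-cage arrays 3. Without these, its changes with enrichment were -0.048 and -0.099 in place of -0.22 and -0.20.

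Standard-cage array 3 was the highest of the 5 in both genotypes for 11 of the 43 members (25.6%, against 15.1% of all probe sets), namely Htr2c, Htr3a, Htr4, Drd2, Chrm1, Chrm5, Chrna3, Chrna4, Chrna7, Chrnb2 and Hrh3. Standard-cage array 5 was the lowest in both for 13 members (30.2%, against 14.8%). Summed signal of 9 interneuron markers was 5523 on cbp+/- and 5509 on wild-type standard-cage array 3, and 3701 to 4841 on the other 14 arrays. Its part in the results was not tested.

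**Figure D4:**
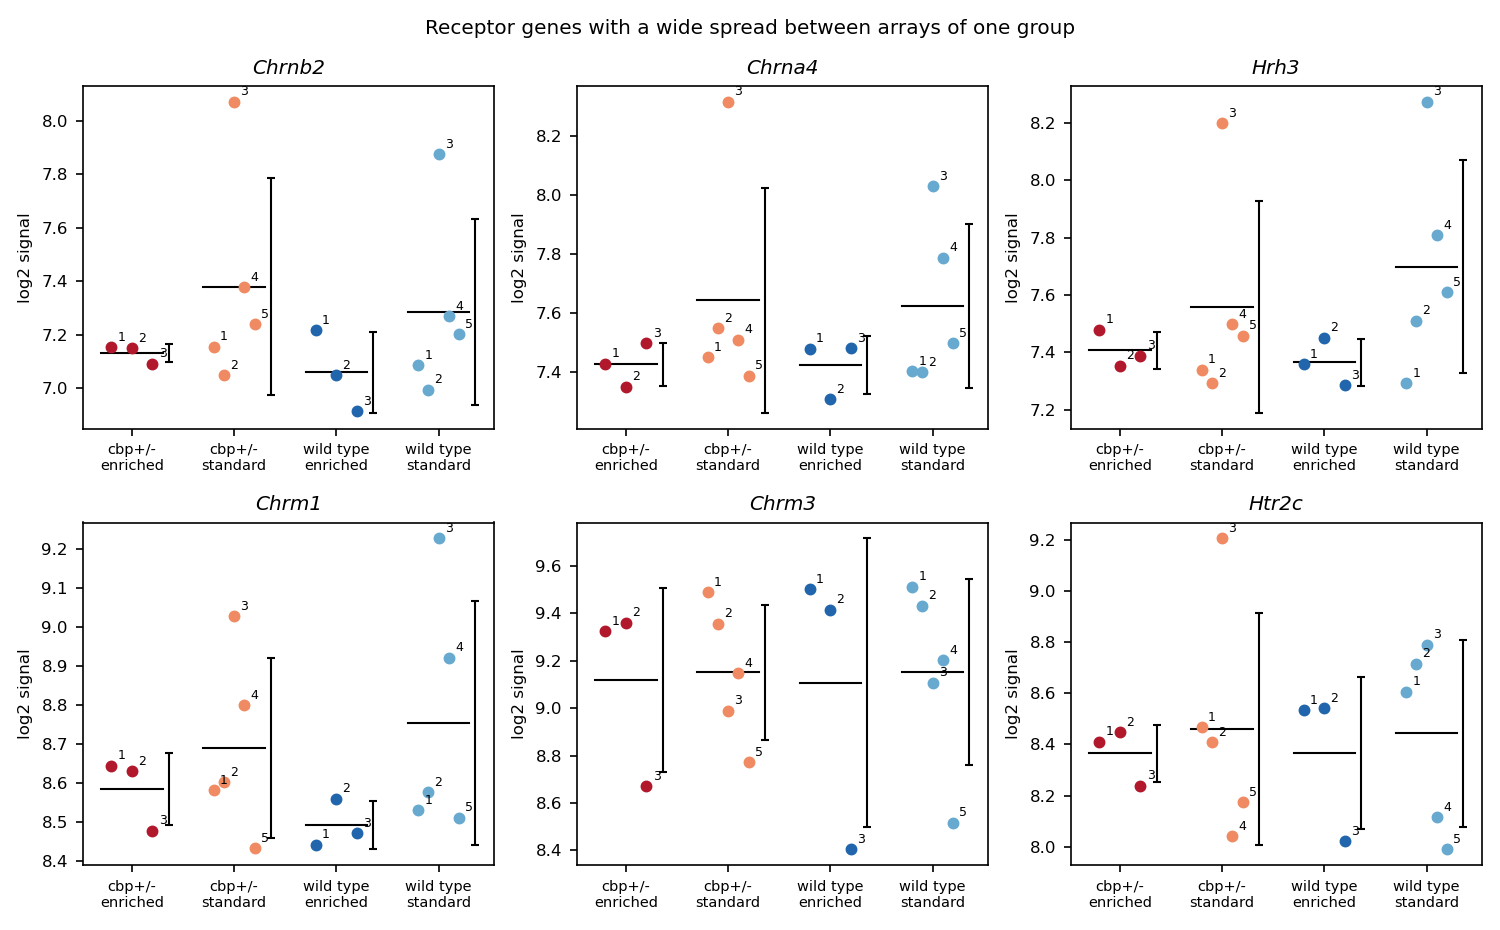
Log2 signal of Chrnb2, Chrna4, Hrh3, Chrm1, Chrm3 and Htr2c on each array, with the replicate number beside each point, group means (lines) and SD bars, n = 3 enriched and 5 standard-cage arrays of each genotype. Standard-cage array 3 is the highest of its group in both genotypes for all but Chrm3, and enriched array 3 and standard-cage array 5 are the lowest for Chrm3.

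Chrna7 encodes the α7 subunit, which forms homomeric channels on interneurons and glutamatergic terminals of the hippocampus. It had the smallest p with enrichment in cbp+/- mice. On the log2 scale its signal was 7.88, 7.88 and 7.73 on enriched cbp+/- arrays, against 8.13, 8.06, 8.40, 7.97 and 7.91 on standard-cage cbp+/- arrays, with no overlap (1.25% of all probe sets lay wholly below). The change was -0.27 ± 0.13 (SE), or 0.831-fold, with an unadjusted limma p of 0.0652 and an adjusted p of 0.999. In wild-type mice Chrna7 was 8.01, 8.16 and 7.61 with enrichment, against 8.13, 8.13, 8.42, 8.08 and 7.91 in standard cages, and the groups overlapped (change -0.20 ± 0.13). Within the array sets of cbp+/- mice the difference was -0.22 in replicates 1 and 2 and -0.19 between enriched array 3 and standard-cage array 5. In wild-type mice these differences were -0.044 and -0.29. The average over genotypes was -0.24 ± 0.095 with an adjusted p of 0.210.

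With enrichment in wild-type mice 5 nicotinic genes had an unadjusted p under 0.05, Chrna1, Chrna10, Chrna6, Chrnb1 and Chrna3, all higher by 0.088 to 0.18 and all below the olfactory 95th percentile. These are 5 of 13, where 17.8% of all probe sets and 26.6% of those below the median had such a p. Chrna1 and Chrnb1 are subunits of the muscle receptor, Chrna10 of the receptor of cochlear hair cells, Chrna6 of midbrain dopamine terminals and Chrna3 of the habenula and autonomic ganglia. None of the 5 had an unadjusted p under 0.05 after quantile normalization, when the changes were 0.065 for Chrna1, 0.047 for Chrna10, 0.039 for Chrna6, 0.056 for Chrnb1 and 0.086 for Chrna3. Chrna3 averaged 5.26 ± 0.20 with enrichment and 5.13 ± 0.063 in standard cages in cbp+/- mice, and 5.34 ± 0.13 with enrichment and 5.16 ± 0.071 in standard cages in wild-type mice (SD, n = 3 and 5). Chrnb4, which pairs with Chrna3 in the habenula, averaged 5.96 ± 0.19 with enrichment and 5.85 ± 0.12 in standard cages in cbp+/- mice, and 6.10 ± 0.099 with enrichment and 5.92 ± 0.13 in standard cages in wild-type mice. Summed signal of 5 medial habenula markers was 342 to 371 on enriched and 331 to 396 on standard-cage cbp+/- arrays, and 391 to 402.5 on enriched and 339 to 418 on standard-cage wild-type arrays, with Gng8, Gpr151 and Pou4f1 below the olfactory 95th percentile. The other nicotinic genes, Chrna2, Chrna5, Chrna9 and Chrnb3, differed by 0.11 or less in size in every group comparison.

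**Figure D5:**
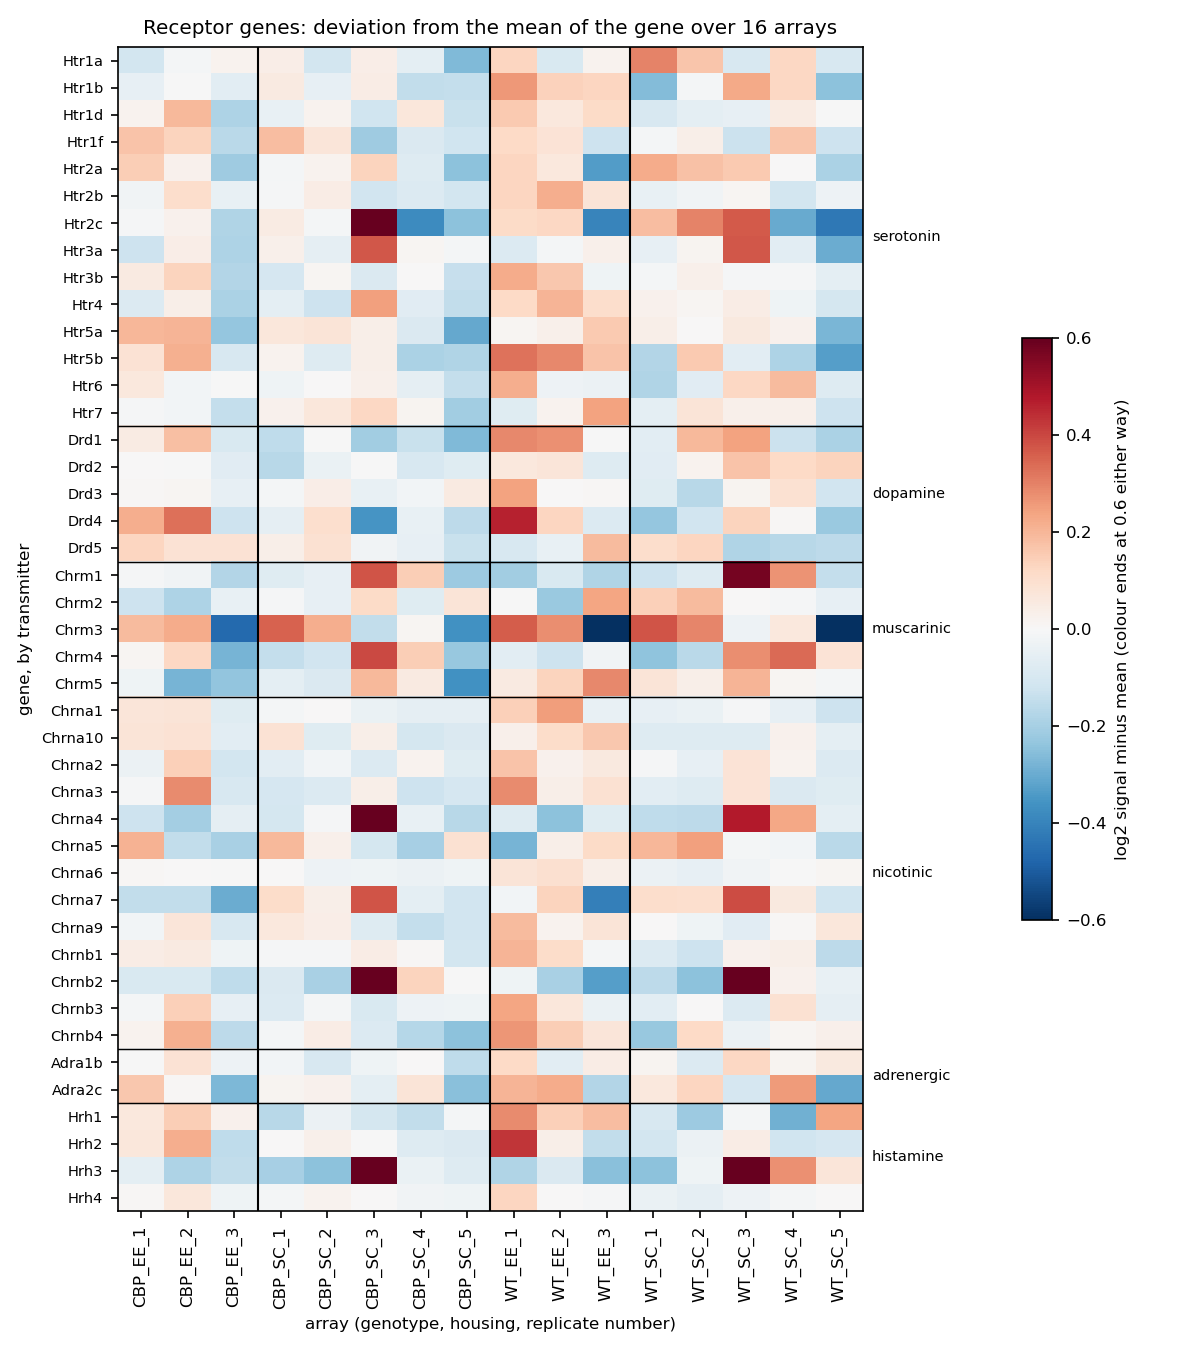
Log2 signal of the 43 receptor genes on the 16 arrays as the deviation from the mean of each gene, grouped by transmitter down the page and by group across it, with the colour ending at a deviation of 0.6 either way. The column of standard-cage array 3 is high in both genotypes for Chrnb2, Chrna4, Hrh3, Chrm1 and Chrna7, and most dim nicotinic genes lie above their mean on enriched wild-type array 1.

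Of the adrenergic receptors, Adra2c encodes the Gi-coupled α2C receptor. Its signal was 6.96, 6.80 and 6.52 on enriched and 6.81, 6.82, 6.74, 6.87 and 6.54 on standard-cage cbp+/- arrays. In wild-type mice Adra2c was 6.996, 7.02 and 6.62 with enrichment, against 6.85, 6.92, 6.69, 7.05 and 6.49 in standard cages. As for Chrm3, enriched array 3 and standard-cage array 5 were the lowest of their groups in both genotypes, and the group means differed by 0.12 or less. Adra1b, the Gq-coupled α1B receptor, was lower in the cbp+/- array of all 5 standard-cage pairs (change -0.083 ± 0.050, adjusted p = 1.00). How many of all probe sets were lower in each of these pairs was not counted.

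Among the histamine receptors, Hrh1 was the only member whose enriched cbp+/- arrays all lay above the standard-cage cbp+/- arrays (1.64% of all probe sets did). Hrh1 encodes the Gq-coupled H1 receptor. The log2 signal was 6.76, 6.84 and 6.72 on enriched cbp+/- arrays, against 6.53, 6.66, 6.59, 6.54 and 6.68 on standard-cage cbp+/- arrays (change 0.17 ± 0.092, adjusted p = 0.999). In wild-type mice it was 6.98, 6.84 and 6.88 with enrichment, against 6.60, 6.47, 6.68, 6.41 and 6.93 in standard cages, where array 5 lay above 2 of the 3 enriched arrays. The wild-type change was 0.28 ± 0.092, or 1.21-fold, with an adjusted p of 0.166, and 0.36 without standard-cage wild-type array 5. Averaged over genotypes Hrh1 was 0.23 ± 0.065 higher with enrichment (unadjusted limma p of 0.00355, adjusted p = 0.149). Hrh1 was higher with enrichment in replicates 1 and 2 of both genotypes, by 0.21 in cbp+/- and 0.37 in wild-type mice. Between enriched array 3 and standard-cage array 5 the differences were 0.038 and -0.051. Of the 8 members at an unadjusted p under 0.05, Hrh1 and Htr5b lay above the olfactory 95th percentile, and both had an unadjusted p under 0.05 in wild-type mice after quantile normalization.

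Hrh3, the Gi-coupled H3 receptor that acts presynaptically on histamine and other terminals, had a log2 signal of 7.48, 7.35 and 7.39 on enriched and 7.34, 7.29, 8.20, 7.50 and 7.46 on standard-cage cbp+/- arrays. In wild-type mice Hrh3 was 7.36, 7.45 and 7.29 with enrichment, against 7.29, 7.51, 8.27, 7.81 and 7.61 in standard cages. The changes with enrichment were -0.15 ± 0.21 in cbp+/- and -0.33 ± 0.21 in wild-type mice, and 0.010 and -0.19 without both standard-cage arrays 3. Hrh2 and Hrh4 differed by 0.17 or less in size in every group comparison.

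In standard cages 13 receptor genes were higher and 30 lower in cbp+/- mice, with a median of -0.020 (53.7% of all probe sets were higher, median 0.0044). This split rested on single arrays. It was 22 higher and 21 lower without standard-cage wild-type array 4 (median 0.0011) or cbp+/- array 5 (median 0.0014), 21 and 22 without wild-type array 3 (median -0.0017), and 23 and 20 with replicates 1 and 2 only (median 0.026). The median was -0.0079 without cbp+/- array 4, -0.032 without cbp+/- array 2, -0.034 without cbp+/- array 3 and -0.048 without wild-type array 5. Under enrichment 9 were higher and 34 lower, with a median of -0.067 (41.7% of all higher, median -0.020). The split was 17 and 26 without enriched wild-type array 1 (median -0.038), 15 and 28 without enriched cbp+/- array 3 (median -0.022) and 7 and 36 without enriched cbp+/- array 2 (median -0.109), and quantile normalization gave a median of -0.032. Averaged over housings 8 were higher and 35 lower, with a median of -0.044 (43.3% of all higher, median -0.0095). Without enriched cbp+/- array 3 this became 15 and 28 (median -0.022), and without enriched wild-type array 3 it was 7 and 36 (median -0.070). Under enrichment 1 of the 22 members below the median probe set was higher in cbp+/- mice (21.6% of all such probe sets), as were 8 of the 21 above it (61.8% of all such). With same-numbered cbp+/- and wild-type arrays of a housing as a block, the counts at an unadjusted p under 0.05 were 4 in standard cages (4.39% of all), 5 under enrichment (13.0%) and 6 over both (11.7%; 5 lower and Chrnb2 higher in cbp+/- mice), and none passed the adjusted threshold. For the response to enrichment, 30 of 43 members had a lower value in cbp+/- than in wild-type mice, with a median interaction of -0.049 (-0.019 over all probe sets, of which 42.5% were above 0). Without enriched cbp+/- array 3 the direction turned, with 24 higher and 19 lower and a median of 0.0054. The median was -0.011 without enriched wild-type array 1, -0.030 without standard-cage wild-type array 5, -0.079 without enriched wild-type array 3, -0.080 without standard-cage cbp+/- array 5 and -0.093 without enriched cbp+/- array 2. With the block 2 members had an unadjusted p under 0.05 for it (6.62% of all), Htr4 and Htr5b.

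Within the sets of similar arrays, changes with enrichment were read in replicates 1 and 2 and between enriched array 3 and standard-cage array 5. In cbp+/- mice 18 members (41.9%, against 26.5% of all probe sets) were higher in both, and 6 (14.0%, against 20.4%) lower in both. In wild-type mice 23 members (53.5%, against 32.3%) were higher in both, and 5 (11.6%, against 17.4%) lower in both. The second of these differences sets 1 array against 1 array in each genotype.

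Genes that make, carry and break down the transmitters, and those that act downstream of the receptors, were set beside the receptors. Of 17 genes for synthesis, uptake and vesicular loading, 14 were higher with enrichment in cbp+/- mice and 16 in wild-type mice, 1 and 9 with an unadjusted p under 0.05, and none past the adjusted threshold. Of all probe sets 55% and 58.4% were higher, and 2.82% and 17.8% had such a p. Of those below the median 68.1% and 84.4% were higher. Only 7 of the 17 lay above the olfactory 95th percentile, and those below it included Chat, Slc5a7, Slc6a4, Slc18a1, Slc18a2 and Tph2. Slc18a3, the vesicular acetylcholine transporter, had the smallest p in wild-type mice (0.37 ± 0.086, adjusted p = 0.111), and Hdc, which makes histamine, in cbp+/- mice (0.17 ± 0.070, adjusted p = 0.999). Of 26 G-protein, adenylyl cyclase, phospholipase C, protein kinase A and GIRK channel genes, 3 were higher and 23 lower with enrichment in cbp+/- mice, and 7 higher and 19 lower in wild-type mice, where 41.9% and 32.3% of all probe sets above the median were higher. Prkar2a, a regulatory subunit of protein kinase A, had the smallest p among these in wild-type mice (-0.37 ± 0.13, adjusted p = 0.184). Of 10 kinase, arrestin and RGS genes that end receptor signalling, 4 were higher in cbp+/- and 2 in wild-type mice with enrichment, with Rgs14 at -0.37 ± 0.11 (adjusted p = 0.147) and Rgs4 at 0.36 ± 0.14 (adjusted p = 0.209) in wild-type mice. Of 9 genes for nicotinic assembly and Lynx-type modulators, 3 were higher with enrichment in each genotype. Between genotypes Lypd6 was at -0.31 ± 0.11 in standard-cage cbp+/- mice (adjusted p = 1.00), and Lypd6b at -0.19 ± 0.060 in enriched cbp+/- mice (adjusted p = 0.924). Breakdown enzymes (5 genes) and receptor partners (4 genes) were called in no comparison. In the 5 comparisons that average over neither genotype nor housing, Homer1 had the smallest p among them, with enrichment in wild-type mice (0.28 ± 0.083, limma adjusted p = 0.149). With enrichment averaged over genotypes, 1 receptor partner also had an unadjusted limma p under 0.05.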

How the data were processed

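RNA from pools of 4 hippocampi was hybridised to 16 Affymetrix Mouse Gene 1.0 ST arrays and analysed with GeneSpring GX, per the labels' protocols; RMA is named in the submitters' processing notes, with no version stated. The deposited intensity values of 28815 probe sets are linear (22.12 to 16520.86, none missing); log2 was taken here of the authors' deposited intensities, with no further normalization. Of these, 23385 have a gene in the platform table; 21780 with a single symbol were tested, and 1605 with several symbols and 5430 not in that table were left out. Array number limits the precision.

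Means of the 4 groups (12 residual degrees of freedom) were fitted with limma 3.58.1 in R 4.3.3, lmFit and eBayes, with 7 contrasts and Benjamini-Hochberg adjustment over all 21780 probe sets; an adjusted p under 0.05 was called. Pools were separate per the labels, and p-values rest on the spread between arrays of a group, each a pool. That spread also holds the differences between the array sets, which cut across the groups. The main fit has no term for these sets or for same-numbered arrays. The fit was also run on simulated data with independent noise on each array. Those data hold no array sets, so they cannot show how the fit behaves with them. The members and the gene lists were chosen with earlier results of these data known. Named array by array are, in each family, the member with the highest mean signal. So are, for each of 5 comparisons, the 3 members with the smallest unadjusted p. A fixed list of 14 members, some of them among these, is given by array or by group mean. Other members are given where a count singles them out, after their values were seen. From each pathway list up to 2 genes a comparison were eligible.

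Deviations from group means of same-numbered cbp+/- and wild-type arrays correlated at 0.54 to 0.77 in standard cages. With enrichment they correlated at 0.26, 0.31 and 0.63 for arrays 1, 2 and 3. Those of same-numbered arrays of the housings ranged from -0.39 to 0.37. Among them, cbp+/- arrays 1 and 2, at 0.37 and 0.29, lay near the enriched genotype pairs 1 and 2. The labels state no pairing, and for enriched arrays 1 and 2 these values do not show one. Differently numbered arrays were not compared in this way. Alternatives were quantile normalization, dim probe sets left out, replicate blocks, array weights, a trended prior, an offset of 50, fewer arrays and array sets as a block, the last, the block within a housing and leaving out both standard-cage arrays numbered 3 being chosen after seeing the data. Promoter windows are RefSeq's (GRCm38.p6).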

Additional observations from a re-analysis of the deposited data

Results flagged for a closer look

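The 43 receptor genes in each genotype gave 86 groups of 5 standard-cage arrays. A gap between the highest or lowest array and its neighbour exceeded Dixon's critical ratio of 0.71 in 9 of them. For independent groups chance gives about 1 in 20, but these genes share the same arrays. The rule was not run on the other probe sets, so whether 9 is more than among other genes is not known. On standard-cage cbp+/- array 3 the highest log2 signals were 7.207 for Htr3a (next 6.86), 7.7253 for Htr4 (next 7.42), 5.2373 for Chrna3 (next 5.12), 8.3183 for Chrna4 (next 7.55) and 8.20 for Hrh3 (next 7.50). Chrna3 was also highest on standard-cage wild-type array 3, at 5.2839 (next 5.14). The other 3 were Chrna6 on standard-cage cbp+/- array 1, at 4.8753 (next 4.84), Chrna10 on standard-cage wild-type array 4, at 5.5056 (next 5.42), and Htr5a, lowest on standard-cage wild-type array 5 at 6.3716 (next 6.65). Array 3 of the standard cage thus holds 6 of the 9, and the cause was not tested.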

How the results depend on the processing

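None of the 43 receptor genes was called in the main fit, so no called direction could reverse. Changes that were not called did turn in sign in places, as given above for Chrm3 and Chrm4. None of the 43 was called with quantile normalization, dim probe sets left out, replicate block by number or 2 groups only. The same held with the trended prior, the offset of 50 and each array left out in turn. Array weights, which lower the influence of some arrays, did give calls, out of 43 receptor genes and 21780 probe sets. Enrichment called 14 and 5254 in wild-type mice, 0 and 1039 in cbp+/- mice, and 14 and 6167 averaged over genotypes. Genotype called 8 and 2474 under enrichment and 1 and 152 averaged over housings, and the interaction called 2 and 429. At an unadjusted limma p under 0.05, these weights gave 18 of 43 members for enrichment in wild-type mice (36.8% of all probe sets). For genotype under enrichment they gave 13 of 43 (28.1% of all). With replicates 1 and 2 only, which all lie in 1 array set, 9 of 43 receptor genes and 6513 of 21780 probe sets were called for enrichment in wild-type mice. Averaged over genotypes the calls were 8 and 5470. At an unadjusted limma p under 0.05 these arrays gave 20 of 43 members in wild-type mice (44.6% of all probe sets) and 19 averaged (42.1%). The trended prior called 100 probe sets for enrichment in wild-type mice and 8 averaged, the offset of 50 called 25 in wild-type mice, and array sets as a block called 15, 15 averaged and 1 for genotype averaged, none a receptor gene. Leaving out each array in turn called 0 to 19 probe sets for enrichment in wild-type mice (19 without enriched cbp+/- array 3) and 0 to 230 averaged (230 without enriched cbp+/- array 3). With dim probe sets left out, the median change of the 21 members kept was -0.032 in cbp+/- mice, -0.047 in wild-type mice and -0.040 averaged, below 0 where that of all 43 was above it. The replicate block by number called 326 probe sets for enrichment averaged, no receptor gene, and changed no other call; the block within a housing called none. The mean over all probe sets of a gene was not run, since each member has 1 probe set. The cause of these shifts was not tested. Signals near those of olfactory receptors limit what 13 members can show.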
